A study of Homo sapiens with 17 samples.

Results

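High mobility group (HMG) proteins are small, abundant nuclear proteins that bind chromatin without being histones. The HMG genes described here are the 10 genes *HMGA1*, *HMGA2*, *HMGB1*, *HMGB2*, *HMGB3* and *HMGN1* to *HMGN5*, 2 of the HMGA, 3 of the HMGB and 5 of the HMGN subfamily. They were listed by symbol and matched to the Ensembl identifiers of a table of 60664 genes. The family was chosen by its members' measured differences between AZD5153- and DMSO-treated libraries, so those differences are given as a description without p-values. All 10 members passed the filter of a mean of at least 10 normalized counts, as did 15599 genes of the table.

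HMGA proteins bind the minor groove of AT-rich DNA through AT hooks and help to assemble transcription factor complexes at enhancers. HMGB proteins bend DNA with HMG boxes, and HMGN proteins bind nucleosome cores and loosen chromatin compaction by competing with linker histone H1. In development and in tumors, HMGA and HMGB2 levels are known to be high in dividing, immature cells, and in senescent cells HMGA proteins are found in heterochromatic foci while HMGB proteins are lost from the nucleus.

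RNA-Seq was performed in SF8628, an established cell line from a diffuse midline glioma (DMG) with the H3.3 K27M mutation, grown as a monolayer in serum. Cells received the vehicle DMSO or 1 μM AZD5153, a bivalent inhibitor that displaces bromodomain and extraterminal (BET) proteins from acetylated histones, for 24 or 48 hours. Each of the 4 groups (DMSO 24 h, DMSO 48 h, AZD5153 24 h and AZD5153 48 h) had 3 libraries, all from this 1 line, so the 12 libraries describe 1 tumor's cells in culture. The labels do not say whether the 3 libraries of a group came from separate cultures, and p-values then measure only the spread between these libraries.

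Libraries held 15759148 to 27335220 reads on genes. Replicate 1 of DMSO at 24 h stood apart from replicates 2 and 3 in several members, and values with and without it are given where it matters. Of the 8 glial and glioma markers set beside the label, 3 had a median of at least 100 normalized counts: *VIM* (14454 to 28352 over the libraries), *NES* (527 to 2205) and *SOX2* (119 to 252). *OLIG2* was listed at 0 in every library, *SOX10* did not exceed 6.24 and *PDGFRA* did not exceed 5.40. The 3 fibroblast markers *COL1A1*, *DCN* and *LUM* summed to between 44235 and 61086 in the DMSO libraries and between 15334 and 18744 in the AZD5153 libraries. Most of this was *COL1A1* (14713 to 59769), with *LUM* at 233 to 2138 and *DCN* at most 25.9. Among microglial markers, *AIF1* was listed at 0, *PTPRC* and *CD68* did not exceed 4.46, and *CSF1R* ranged from 23.3 to 211. Among endothelial markers, *CDH5* was listed at 0, *VWF* ranged from 14.7 to 94.6 and *PECAM1* from 27.2 to 565. The summed level was 177 to 213 in DMSO and 25.6 to 48.9 in AZD5153 for the 4 microglial markers, and 324 to 636 and 50.0 to 67.0 for the 3 endothelial markers. The 3 neuronal markers summed to 701 to 884 in DMSO and 745 to 922 in AZD5153, most of it *SYT1* (634 to 903). The part of these marker levels in the results for the HMG genes was not tested. RNA was measured over all cells together, so fewer cells of a type and less RNA per cell cannot be told apart.

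*HMGA1* and *HMGN1* were higher in every AZD5153 library than in every DMSO library of the same time, at both times. *HMGA2*, all 3 HMGB genes, *HMGN3* and *HMGN4* were lower in the same sense. At 24 h 2 of 10 members passed the threshold as higher and 6 as lower (limma, Benjamini-Hochberg adjusted p under 0.05 over 15599 genes), while 33.9% of all genes tested were higher and 34.6% lower. At 48 h 2 members passed again as higher and 6 as lower, 1 of them a different gene, against 33.1% and 33.9% of all genes. The members' median log2 difference was -0.32 at 24 h and -0.35 at 48 h, and that of all genes was 0.00 at both times. Because the family was chosen on this contrast, nothing is read from these counts and medians. The normalized counts, which are reads divided by a size factor per library, are shown for each library in the plot of the members by group.

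**Figure D1:**
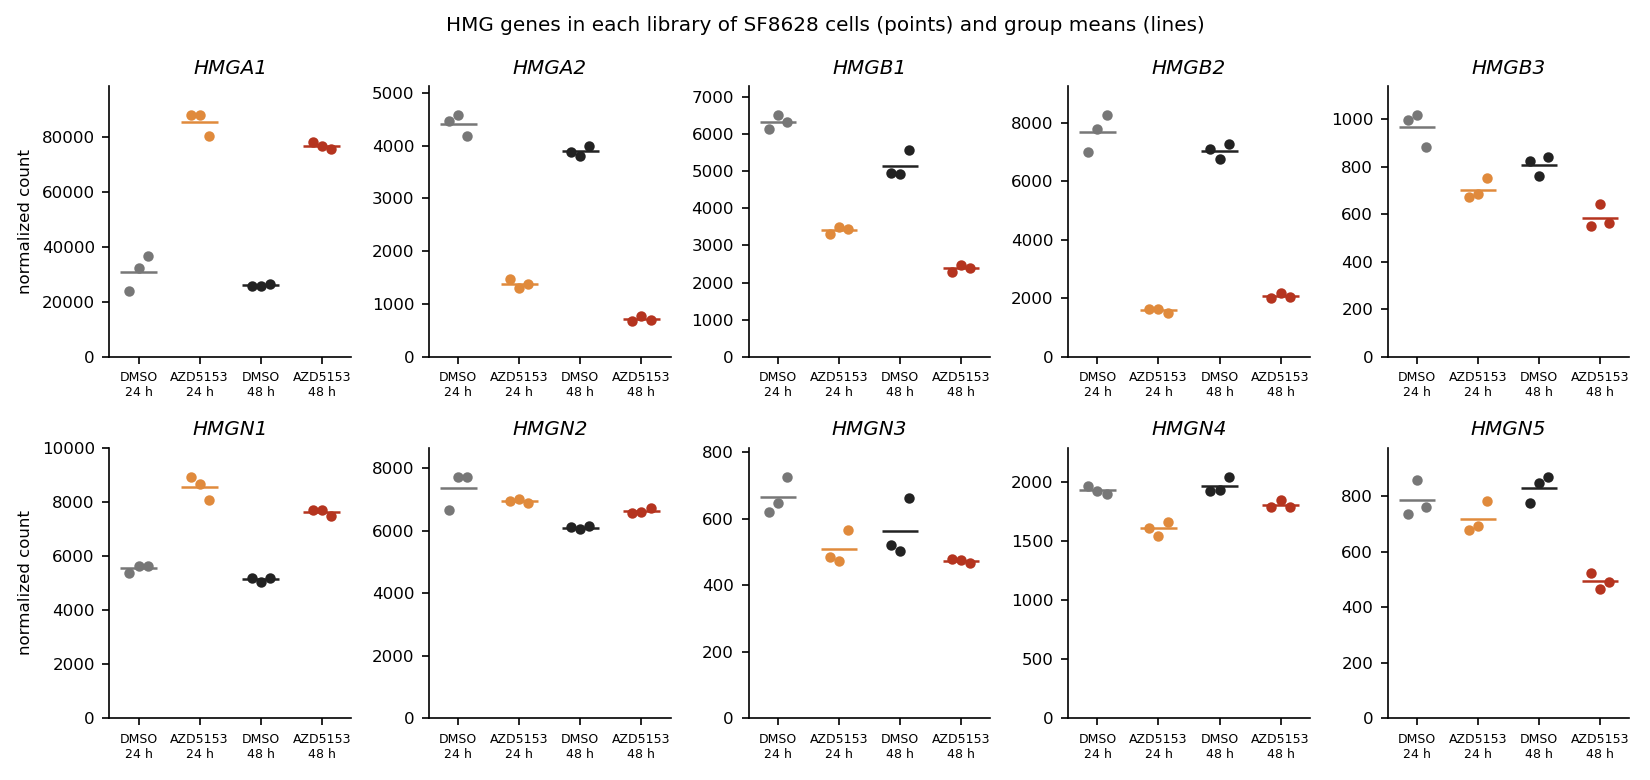
Normalized count (axes from 0) of each HMG gene in each of the 12 libraries, by treatment and time, with points for libraries and lines for the means of 3 libraries. *HMGA1* and *HMGN1* sit higher in all AZD5153 libraries than in all DMSO libraries, *HMGA2* and the 3 HMGB genes sit lower at each time, and *HMGN2* lies between 6056 and 7737 throughout.

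*HMGA1*, an architectural factor of enhancers and a known target of MYC, had the highest level per kb of exon of the family in all 4 groups. It lies on chromosome 6 at chr6:34236873-34246231 of GRCh38, plus strand (ENSG00000137309). At 24 h its normalized counts were 23961, 32209.7 and 36716 in the DMSO libraries and 88128, 88048 and 80421 in the AZD5153 libraries. At 48 h they were 25662, 25827 and 26699 in DMSO and 78149.5, 76984 and 75911 in AZD5153. Every AZD5153 library was thus above every DMSO library, and among DMSO libraries at 24 h replicate 1 was the lowest. On the log2(normalized count + 1) scale the difference was 1.49 ± 0.10 (SE) at 24 h and 1.56 ± 0.10 at 48 h, folds of 2.80 and 2.96. Quantile normalization, which sets all libraries to 1 distribution, gave smaller differences of 0.88 and 0.77. Without replicate 1 of DMSO at 24 h, the 24-h difference was 1.31.

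Reads on *HMGA1* made up 0.160% ± 0.033 (SD, n = 3) of all reads on genes in DMSO at 24 h and 0.405% ± 0.020 in AZD5153. At 48 h the shares were 0.139% ± 0.0028 and 0.366% ± 0.0056. Ranked by normalized count per kb of exon among the 12757 protein-coding genes tested, *HMGA1* was 9th in DMSO at 24 h, 14th in DMSO at 48 h and 5th in AZD5153 at both times. Its 8 annotated pseudogenes together held 0.125% as many counts as the gene, and no 150-base window of its canonical transcript was shared with another transcript.

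*HMGA2*, a fetal HMGA gene known as a target of let-7 microRNAs, went the other way. It lies at chr12:65824460-65966291, plus strand (ENSG00000149948). At 24 h its normalized counts were 4463, 4577 and 4177 in DMSO and 1464, 1302 and 1381 in AZD5153. At 48 h they were 3875, 3806 and 3991 in DMSO and 680.2, 771 and 699 in AZD5153. The groups did not overlap, and the AZD5153 libraries at 48 h were below those at 24 h as well as below DMSO. The log2 difference was -1.67 ± 0.06 (SE) at 24 h and -2.44 ± 0.06 at 48 h, which corresponds to 3.19-fold and 5.43-fold lower values. Its rank per kb of exon fell from 2913th and 3153rd in DMSO at 24 and 48 h to 6589th and 8411th in AZD5153. Genes on the opposite strand within its locus held few counts, a mean of 41.0 for *RPSAP52* and 17.7 for *HMGA2-AS1* over the 12 libraries.

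The ratio of *HMGA1* to *HMGA2* counts was therefore 7.07 ± 1.71 (SD, n = 3) with DMSO and 62.0 ± 4.94 in AZD5153 at 24 h. At 48 h it was 6.70 ± 0.08 in DMSO and 108 ± 7.58 in AZD5153. The lowest ratio under AZD5153 was 58.2 and the highest in DMSO was 8.79, so the treatments were far apart in this measure. Both genes belonged to the values that the choice used, and the ratio has no test.

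*HMGB1*, which acts in the nucleus as a DNA-bending protein and outside the cell as an alarmin, was lower under AZD5153 in every library. It lies at chr13:30456704-30617597, minus strand (ENSG00000189403). Its normalized counts at 24 h were 6126, 6515 and 6339.6 in DMSO and 3301, 3484 and 3437 in AZD5153. At 48 h they were 4965, 4915 and 5570.4 in DMSO and 2295, 2487 and 2402 in AZD5153. On the log2 scale this was a difference of -0.89 ± 0.06 (SE) at 24 h and -1.10 ± 0.06 at 48 h. The 48 pseudogenes of *HMGB1* held a mean of 305 counts, 7.06% of the gene's own, of which *HMGB1P6* held 185. In the canonical transcript, 5.03% of 150-base windows were identical to sequence in *HMGB1P5* or *HMGB1P6*, so some of its reads may have been placed on these copies or left out.

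*HMGB2*, a paralog that marks dividing cells and whose loss is known from senescence, had the largest decrease of the family at 24 h. It lies at chr4:173331376-173334432, minus strand (ENSG00000164104). The normalized counts at 24 h were 6986, 7791 and 8262 in DMSO and 1648, 1646 and 1514 in AZD5153. At 48 h they were 7111, 6748 and 7283 in DMSO and 1997, 2178 and 2033 in AZD5153. No DMSO library came near an AZD5153 library, and the AZD5153 values were higher at 48 than at 24 h. The decrease amounted to -2.26 ± 0.06 (SE, log2 scale) at 24 h and -1.77 ± 0.06 at 48 h, or 4.78-fold and 3.41-fold lower.

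*HMGB3*, an X-linked paralog known from hematopoietic progenitors, changed less. It lies at chrX:150980509-150990771, plus strand (ENSG00000029993). Its normalized counts were 994, 1017 and 883 in DMSO and 670.4, 684 and 754 in AZD5153 at 24 h. At 48 h they were 825, 762 and 839 in DMSO and 552, 641 and 562 in AZD5153. The treatments did not overlap at either time, but the lowest DMSO library at 48 h (762) was close to the highest AZD5153 library at 24 h (754). Its log2 differences were -0.46 ± 0.08 (SE) at 24 h and -0.47 ± 0.08 at 48 h.

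The 3 HMGB genes were thus all lower, but not to the same extent. The ratio of *HMGB1* to *HMGB2* counts was 0.827 ± 0.055 (SD, n = 3) with DMSO and 2.13 ± 0.13 in AZD5153 at 24 h. At 48 h the ratio was 0.730 ± 0.033 in DMSO and 1.16 ± 0.02 in AZD5153. The plot of paired ratios shows this beside the ratios of the other subfamilies.

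**Figure D2:**
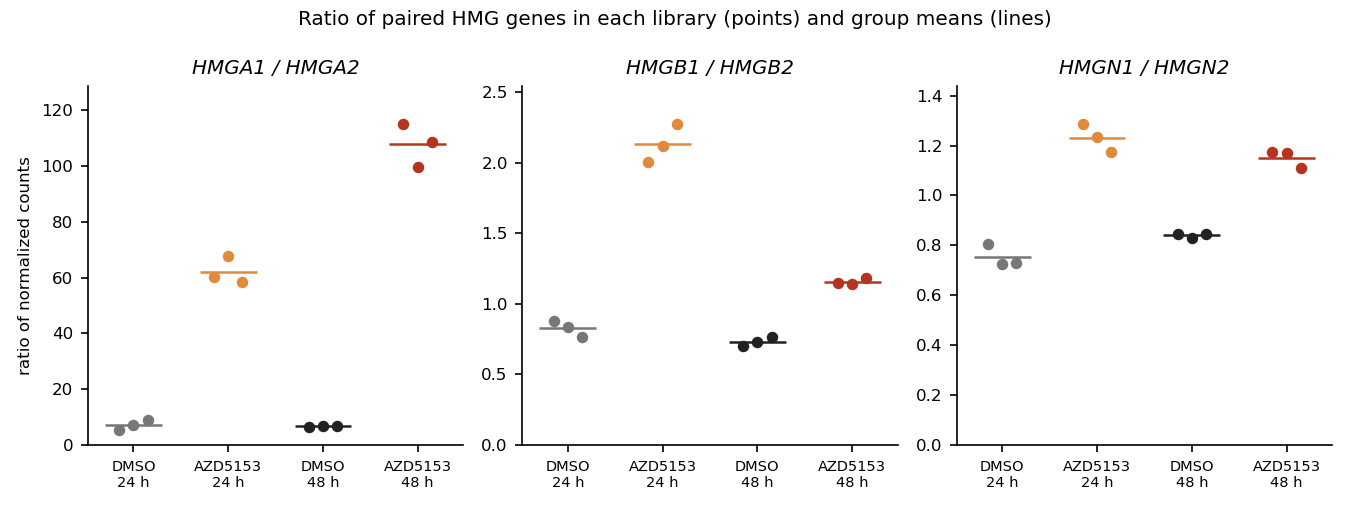
Ratio of normalized counts for *HMGA1* to *HMGA2*, *HMGB1* to *HMGB2* and *HMGN1* to *HMGN2* (axes from 0), with points for the 3 libraries of each group and lines for their means. Each ratio is higher in every AZD5153 library than in every DMSO library, with a mean of 108 for *HMGA1* to *HMGA2* in AZD5153 at 48 h.

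Among the HMGN genes, *HMGN1* was higher under AZD5153 and its paralog *HMGN2* differed little. *HMGN1* lies at chr21:39342315-39349647, minus strand (ENSG00000205581), within the region of chromosome 21 that Down syndrome triplicates. Its normalized counts at 24 h were 5372, 5617 and 5634 in DMSO and 8938, 8672 and 8075 in AZD5153. At 48 h they were 5168, 5032 and 5196 in DMSO and 7702, 7716 and 7474 in AZD5153. The lowest AZD5153 library (7474) was above the highest DMSO library (5634). In log2 terms the difference was 0.63 ± 0.05 (SE) at 24 h and 0.57 ± 0.05 at 48 h, folds of 1.54 and 1.49.

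*HMGN2* lies at chr1:26472440-26476642, plus strand (ENSG00000198830). At 24 h it had 6673, 7737 and 7716 normalized counts in DMSO and 6957, 7019 and 6879 in AZD5153, so the groups overlapped. At 48 h the counts were 6114, 6056 and 6143 in DMSO and 6559.7, 6605 and 6732 in AZD5153, all of the latter higher. The log2 differences were -0.08 ± 0.05 (SE) and 0.12 ± 0.05, and the 48-h value changed sign when libraries were scaled to equal totals (-0.05) or quantile-normalized (-0.07). Without replicate 1 of DMSO at 24 h, the lowest of its group, the 24-h difference was -0.15, and without replicate 2 or 3 it was -0.05. Equal totals gave -0.21 and quantile normalization -0.14 at 24 h. The ratio of *HMGN1* to *HMGN2* counts went from 0.754 ± 0.044 (SD, n = 3) with DMSO to 1.23 ± 0.06 in AZD5153 at 24 h. At 48 h it went from 0.841 ± 0.008 to 1.15 ± 0.04. Of the 150-base windows of *HMGN2*, 4.41% were shared with the pseudogenes *HMGN2P3* and *HMGN2P5*, and its 38 pseudogenes together held 1.30% as many counts as the gene.

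*HMGN3*, a nucleosome binder known from neuroendocrine and eye tissues, lies at chr6:79201245-79234689, minus strand (ENSG00000118418). It had 619, 646 and 727 normalized counts in DMSO and 485, 472 and 567 in AZD5153 at 24 h. At 48 h it had 519.7, 502 and 663 in DMSO and 479, 477 and 465 in AZD5153. The treatments did not overlap within a time, but replicate 3 of DMSO at 48 h was well above the other DMSO libraries of that time. The log2 difference was -0.39 ± 0.11 (SE) at 24 h and -0.23 ± 0.11 at 48 h. The 48-h difference was -0.31 without replicate 2 of DMSO at 48 h and -0.11 without replicate 3. It was -0.40 with libraries scaled to equal totals and -0.14 with quantile normalization. The antisense gene *HMGN3-AS1* had means of 31.4 and 30.4 counts in DMSO and 87.5 and 99.2 in AZD5153 at 24 and 48 h. Whether the counting used strand is not given in the sources used here, so the reads of both genes cannot be told apart where they overlap.

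*HMGN4*, a retrogene of *HMGN2* without introns in its coding sequence, lies at chr6:26538366-26546933, plus strand (ENSG00000182952). At 24 h it had 1959, 1921 and 1899 normalized counts in DMSO and 1609, 1544 and 1662 in AZD5153. At 48 h it had 1918, 1931 and 2043 in DMSO and 1782, 1842 and 1782 in AZD5153. Every AZD5153 library was below every DMSO library, by a small margin at 48 h. The log2 difference was -0.26 ± 0.05 (SE) at 24 h and -0.12 ± 0.05 at 48 h. With single libraries left out, the 48-h difference ranged from -0.14 to -0.09, and with libraries scaled to equal totals it was -0.30.

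*HMGN5*, an X-linked member with a long acidic tail, lies at chrX:81113699-81201913, minus strand (ENSG00000198157). At 24 h it had 737, 859.8 and 760.5 normalized counts in DMSO and 679.8, 693 and 782 in AZD5153, with overlapping groups. At 48 h it had 775, 848 and 871 in DMSO and 525, 467 and 492 in AZD5153, with no overlap. The log2 difference was -0.13 ± 0.08 (SE) at 24 h and -0.75 ± 0.08 at 48 h. The 24-h value was -0.06 without replicate 2 of DMSO at 24 h and -0.25 with libraries scaled to equal totals.

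**Figure D3:**
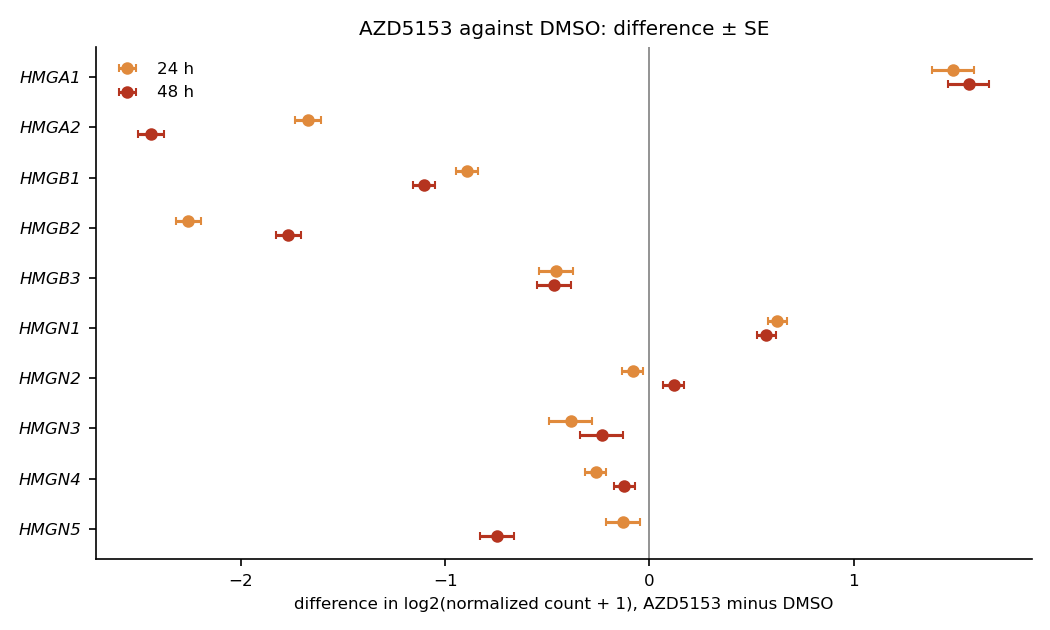
Difference in log2(normalized count + 1) between AZD5153 and DMSO for the 10 HMG genes at 24 and 48 h, with bars for ± 1 SE of the limma fit. *HMGA1* and *HMGN1* lie to the right of 0 at both times, *HMGB2* has the lowest value at 24 h (-2.26) and *HMGA2* the lowest at 48 h (-2.44).

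Set against each other per kb of merged exons, the order of the members differed between treatments. In DMSO at 24 h *HMGA1* (13306 ± 2779.9 normalized counts per kb, SD, n = 3) was followed by *HMGB2* (3199 ± 269), *HMGN2* (2313 ± 191), *HMGN1* (1099 ± 29.1) and *HMGN4* (967 ± 15.2). Then came *HMGB1* (822 ± 25.3), *HMGN3* (493 ± 41.7), *HMGN5* (329 ± 27.3), *HMGA2* (292 ± 13.7) and *HMGB3* (247 ± 18.3), and no neighbours in this order overlapped. The order was the same in DMSO at 48 h, where *HMGN1* and *HMGN4* overlapped. In AZD5153 at 24 h *HMGB2* (668 ± 32.0) was 5th, behind *HMGN2* (2179.9 ± 22.0), *HMGN1* (1698 ± 87.7) and *HMGN4* (806 ± 29.7), and *HMGA2* (91.7 ± 5.37) was last. At 48 h *HMGA2* (47.6 ± 3.20) was again last, *HMGN3* (352 ± 5.36) stood before *HMGB1* (311 ± 12.5), and *HMGN4* and *HMGB2* overlapped. The order depends on the length used: with the length of the canonical transcript, *HMGN1* stood above *HMGN2* in all 4 groups and *HMGA2* was 6th in DMSO.

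The summed level of the 10 genes per kb was 23066 ± 3286 (SD, n = 3) with DMSO and 43500.1 ± 1938 in AZD5153 at 24 h. At 48 h it was 19953 ± 521 and 39523 ± 477. The increase lay in *HMGA1*, since the other 9 genes summed to 9761 ± 519 in DMSO and 6744 ± 44.4 in AZD5153 at 24 h, and to 8753 ± 297 and 6427 ± 82.4 at 48 h. *HMGA1* accordingly made up 57.3% ± 4.07 of the summed level in DMSO and 84.5% ± 0.63 in AZD5153 at 24 h, and 56.1% ± 0.45 and 83.7% ± 0.28 at 48 h. *HMGB2* made up 13.9% ± 0.88 in DMSO and 1.53% ± 0.01 in AZD5153 at 24 h, and 14.7% ± 0.34 and 2.18% ± 0.11 at 48 h. These shares are also on the scale of counts per kb of merged exon.

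**Figure D4:**
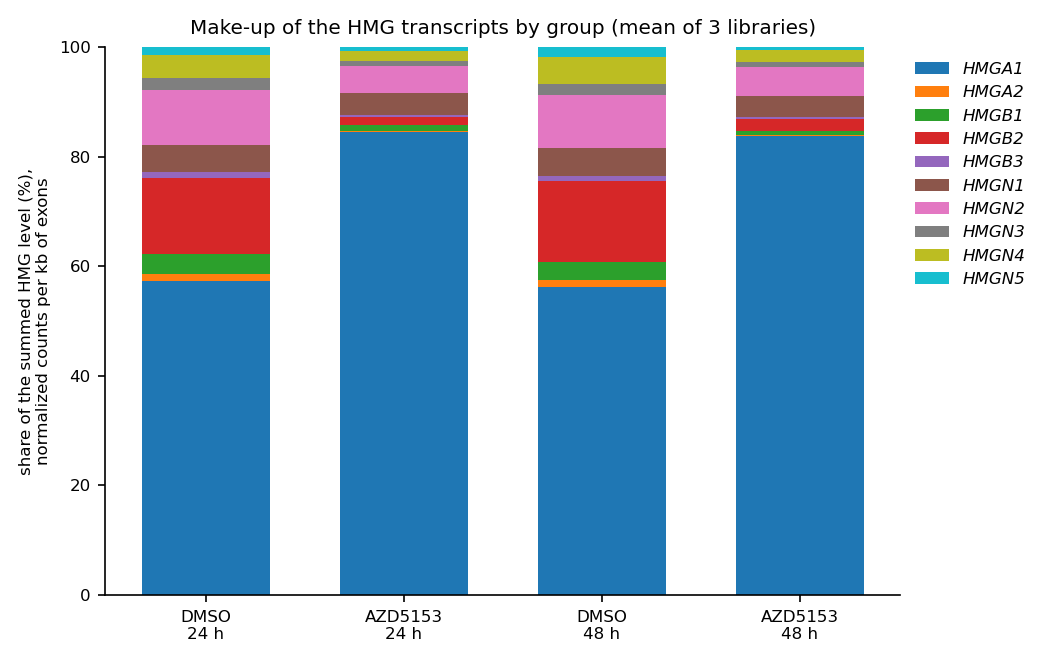
Share (%) of each HMG gene in the summed normalized counts per kb of merged exon of the 10 genes, stacked to 100 by group, each the mean of 3 libraries. The *HMGA1* part takes 57.3% in DMSO and 84.5% in AZD5153 at 24 h, and the *HMGB2* and *HMGN2* parts are narrower in AZD5153.

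The change between 24 and 48 h within a treatment compared libraries of the same treatment and was tested for each member, with p-values adjusted over all 15599 genes (limma, Benjamini-Hochberg). The family was not chosen on this contrast, but the same libraries entered the AZD5153 effects on which it was chosen, so the tests are not fully independent of that choice. In DMSO, 0 members rose and 4 fell, where 16.4% of all genes tested rose and 19.3% fell. *HMGB1* fell by 0.30 ± 0.06 (SE) on the log2 scale (adjusted p = 0.00059, limma), *HMGN2* by 0.27 ± 0.05 (0.00084), *HMGB3* by 0.25 ± 0.08 (0.026) and *HMGA2* by 0.18 ± 0.06 (0.036). In each of the 4 genes all 3 DMSO libraries at 48 h were below all 3 at 24 h. Only the *HMGB1* call was held in all 26 alternatives: quantile normalization ended that of *HMGN2*, 5 alternatives that of *HMGB3* and 11 that of *HMGA2*. Leaving out replicate 2 of DMSO at 24 h (-0.21) or replicate 1 (-0.27) or 2 (-0.21) of DMSO at 48 h ended the *HMGB3* call. Leaving out replicate 2 of DMSO at 24 h (-0.15) or replicate 1 (-0.18), 2 (-0.16) or 3 (-0.20) of DMSO at 48 h ended the *HMGA2* call.

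*HMGA1* in DMSO differed by -0.23 ± 0.10 (SE) between the times (limma adjusted p = 0.097), and here 1 library decided the call. Without replicate 1 of DMSO at 24 h (23961), its difference was -0.40 (limma adjusted p = 1.2e-07). Replicates 2 and 3 (32209.7 and 36716) were above every library at 48 h. Leaving out replicate 1 also changes the spread that the 4 groups share, so this p-value does not reflect the larger difference alone. Without replicate 3 of DMSO at 24 h the difference was -0.09. Without replicate 1 8 members were called in DMSO, *HMGB2* (-0.19), *HMGN1* (-0.13) and *HMGN3* (-0.30) among them. In the fit of all libraries their differences were -0.12 ± 0.06, -0.11 ± 0.05 and -0.25 ± 0.11 (limma adjusted p = 0.15, 0.071 and 0.082), and under quantile normalization those of *HMGB2* and *HMGN1* were 0.03 and 0.02. The *HMGB2* difference was -0.07 without replicate 3 of DMSO at 24 h. *HMGN3* was also called without replicate 3 of DMSO at 48 h (-0.37), and *HMGN1* without replicate 3 of AZD5153 at 24 h (-0.11). *HMGN4* (0.03 ± 0.05) and *HMGN5* (0.08 ± 0.08) had the smallest differences, with limma adjusted p-values of 0.72 and 0.48. That of *HMGN5* was 0.04 without replicate 1 and 0.15 without replicate 2 of DMSO at 24 h.

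In AZD5153, 2 members rose from 24 to 48 h and 5 fell, where 15.8% of all genes rose and 13.8% fell. The AZD5153 libraries of both times entered the effects used for the choice, so the p-values in AZD5153 depend in part on it. *HMGA2* fell by 0.95 ± 0.06 (SE; limma adjusted p = 3.3e-08), to 0.519 of its 24-h value. *HMGN5* fell by 0.54 ± 0.08 (limma adjusted p = 0.00019) and *HMGB1* by 0.51 ± 0.06 (5.7e-06). *HMGB3* fell by 0.27 ± 0.08 (0.023) and *HMGN1* by 0.16 ± 0.05 (0.012). *HMGB2* rose by 0.37 ± 0.06 (limma adjusted p = 0.0004), 1.29-fold, and *HMGN4* by 0.17 ± 0.05 (0.022). In all 7 genes the 3 libraries of 1 time lay on the same side of the 3 of the other. The calls of *HMGA2*, *HMGN5*, *HMGB1* and *HMGB2* held in all 26 alternatives.

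The other AZD5153 calls were less firm. That of *HMGB3* was lost without replicate 3 of AZD5153 at 24 h (-0.21) and without replicate 1 (-0.23) or 3 (-0.24) at 48 h. That of *HMGN1* was lost without replicate 1 at 24 h (-0.13) or replicate 3 at 48 h (-0.15), and scaling on 7 stable genes ended both calls. That of *HMGN4* was lost without replicate 1 (0.17) or 2 (0.14) at 24 h or replicate 2 at 48 h (0.15), and with no minimum mean (0.17). *HMGA1* differed by -0.15 ± 0.10 between the AZD5153 groups (limma adjusted p = 0.29), although its 3 libraries at 48 h were all lower. The spread in this fit is shared by the 4 groups, and without replicate 1 of DMSO at 24 h the same difference had a limma adjusted p of 0.0042. *HMGN2* (-0.07 ± 0.05) and *HMGN3* (-0.10 ± 0.11) were not called in AZD5153. The *HMGN3* difference was -0.01 on 7 stable genes, -0.02 without replicate 3 and -0.15 without replicate 2 of AZD5153 at 24 h.

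**Figure D5:**
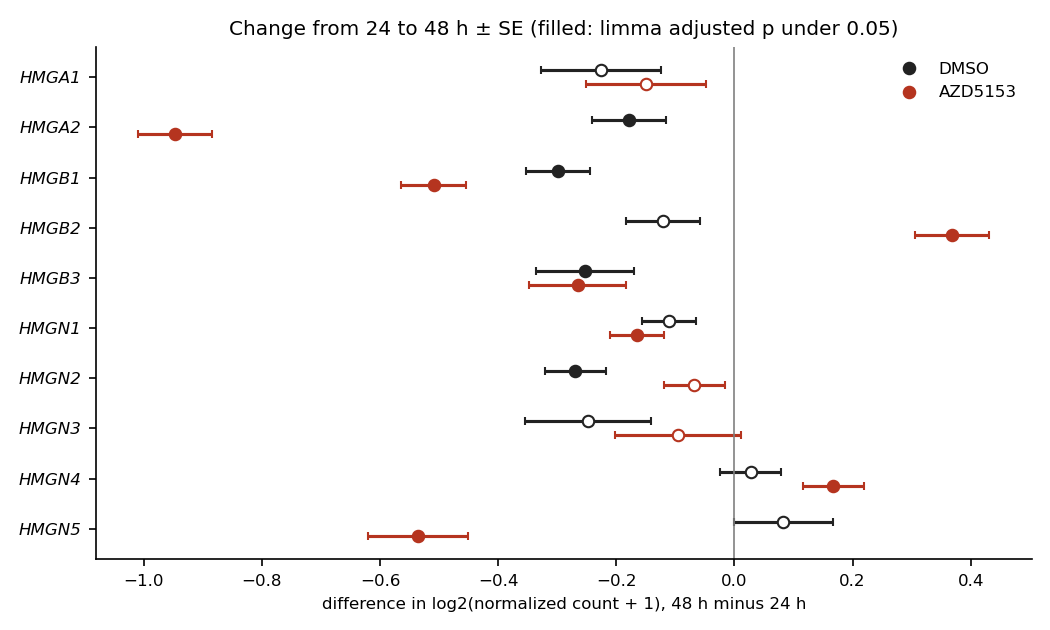
Difference in log2(normalized count + 1) between 48 and 24 h within DMSO (black) and within AZD5153 (red) for the 10 HMG genes, with bars for ± 1 SE and filled points for limma adjusted p under 0.05. *HMGA2* and *HMGN5* lie furthest to the left in AZD5153 (-0.95 and -0.54), and *HMGB2* lies to the right in AZD5153 (0.37) and at -0.12 in DMSO.

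The AZD5153 effect at 48 h was also set against that at 24 h, each taken against the DMSO libraries of its own time. Both effects were among the values on which the family was chosen, so this difference too is a description without p-values. Of the 10 members 1 passed the threshold as higher and 2 as lower, where 14.4% of all genes were higher and 10.1% lower, and nothing is read from the count. *HMGA2* differed by -0.77 ± 0.09 (SE), being lower still at 48 h. *HMGN5* differed by -0.62 ± 0.12, and its treatment groups overlapped at 24 h but not at 48 h. *HMGB2* differed by 0.49 ± 0.09, its decrease being smaller at 48 h.

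The differences of the effects of *HMGB1* (-0.21 ± 0.08) and *HMGN2* (0.20 ± 0.07) were smaller. That of *HMGA1* was 0.08 ± 0.14, which was 0.25 without replicate 1 and -0.06 without replicate 3 of DMSO at 24 h. For *HMGB3* it was -0.01 ± 0.12, for *HMGN1* -0.05 ± 0.07, for *HMGN3* 0.15 ± 0.15 and for *HMGN4* 0.14 ± 0.07. The *HMGN1* value was -0.02 without replicate 1 and -0.10 without replicate 3 of AZD5153 at 24 h, and -0.17 with quantile normalization. That of *HMGN3* was 0.08 without replicate 2 and 0.28 without replicate 3 of DMSO at 48 h.

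The bases before the start sites are shown for 2 members that were higher under AZD5153 and for 2 that were lower. The pairs were picked because their members moved together, so the choice rests on the outcome. *HMGN3* and *HMGN4* were also lower at each time, and their windows are not shown. The windows are those of RefSeq on GRCh38.p14, and 8 of the 10 members had at least 1, with 12 windows in all and none for *HMGA2* and *HMGB2*. All 8 windows of *HMGA1*, *HMGN1*, *HMGB1* and *HMGB3* are shown. Each is given as the longest part of its 250 bases before the start that no GENCODE exon covers. The letters run 5′ to 3′ on the gene's strand, on GRCh38.p14. Capitals mark the CCAAT box, spelled by its name, and the GC box, GGGCGG, each on either strand, and neighbouring GC boxes may share bases. *HMGA1* (plus strand) has windows 1 at chr6:34236749-34236872 and 2 at chr6:34238541-34238790, and *HMGN1* (minus) has 1 at chr21:39349141-39349290. *HMGB1* (minus) has windows 1 at chr13:30465243-30465490, 2 at chr13:30465939-30466116 and 3 at chr13:30617598-30617692. *HMGB3* (plus) has windows 1 at chrX:150983085-150983334 and 2 at chrX:150984141-150984390. The last capitals of *HMGB1* window 1 are a GC box that the end of the stretch breaks off.
HMGA1 window 1: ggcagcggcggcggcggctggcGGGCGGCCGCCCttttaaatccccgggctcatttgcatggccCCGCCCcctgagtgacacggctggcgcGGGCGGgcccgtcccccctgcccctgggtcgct
HMGA1 window 2: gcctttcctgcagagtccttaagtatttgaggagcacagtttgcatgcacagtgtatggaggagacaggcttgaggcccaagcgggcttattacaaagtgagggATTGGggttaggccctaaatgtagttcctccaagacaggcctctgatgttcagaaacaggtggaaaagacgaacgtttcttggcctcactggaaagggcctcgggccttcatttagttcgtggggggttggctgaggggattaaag
HMGN1: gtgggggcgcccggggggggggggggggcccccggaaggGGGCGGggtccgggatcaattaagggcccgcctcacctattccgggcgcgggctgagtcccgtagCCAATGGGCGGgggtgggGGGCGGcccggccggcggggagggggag
HMGB1 window 1: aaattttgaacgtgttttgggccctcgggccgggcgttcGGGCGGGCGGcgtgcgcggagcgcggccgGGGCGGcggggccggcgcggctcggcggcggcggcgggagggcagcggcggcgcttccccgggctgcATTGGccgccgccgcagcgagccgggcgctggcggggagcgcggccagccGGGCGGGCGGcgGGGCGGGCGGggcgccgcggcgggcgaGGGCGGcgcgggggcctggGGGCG
HMGB1 window 2: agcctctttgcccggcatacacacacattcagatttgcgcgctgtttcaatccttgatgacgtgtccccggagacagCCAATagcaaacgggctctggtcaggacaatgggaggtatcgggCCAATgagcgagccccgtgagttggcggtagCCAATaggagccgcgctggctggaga
HMGB1 window 3: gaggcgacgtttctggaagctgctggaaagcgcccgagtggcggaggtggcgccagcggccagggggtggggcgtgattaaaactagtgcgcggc
HMGB3 window 1: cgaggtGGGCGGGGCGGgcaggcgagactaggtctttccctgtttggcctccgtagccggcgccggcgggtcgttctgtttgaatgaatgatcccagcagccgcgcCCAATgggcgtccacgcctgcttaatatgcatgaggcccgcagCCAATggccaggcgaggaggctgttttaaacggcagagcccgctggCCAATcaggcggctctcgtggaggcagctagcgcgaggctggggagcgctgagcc
HMGB3 window 2: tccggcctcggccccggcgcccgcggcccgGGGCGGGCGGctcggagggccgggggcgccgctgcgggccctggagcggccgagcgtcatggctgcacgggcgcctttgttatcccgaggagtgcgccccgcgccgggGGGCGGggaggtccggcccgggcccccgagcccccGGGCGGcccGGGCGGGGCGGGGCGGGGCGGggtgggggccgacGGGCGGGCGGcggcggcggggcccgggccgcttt

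In the stretches shown, the counts differed between the windows of 1 gene as much as between genes. *HMGA1* window 1 holds 0 CCAAT and 4 GC boxes, and window 2 holds 1 and 0. The *HMGN1* stretch holds 1 CCAAT and 3 GC boxes. *HMGB1* window 1 holds 1 CCAAT and 8 whole GC boxes, window 2 holds 3 and 0, and window 3 holds 0 of both. *HMGB3* window 1 holds 3 CCAAT and 2 GC boxes, and window 2 holds 0 and 10. The full 250 bases hold more in some: 5 GC boxes in *HMGA1* window 1 and 2 CCAAT and 4 GC boxes in *HMGN1*. *HMGB1* window 1 then holds 9 GC boxes and its window 3 holds 2. Over the full 250 bases, the CCAAT box letters are in 7 and the GC box letters in 8 of the members' 12 windows. Of 34943 RefSeq windows of the same length, 32.0% hold CCAAT and 42.5% hold GGGCGG, so both are common, and the letters TATAAA are in 0 of the 12 windows and in 10.8% of all. These matches describe the letters and say nothing of what is bound there. *HMGA1*, *HMGB1* and *HMGB3* have more than 1 window, and which start site the cells used was not measured.

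Across the 12 libraries, members followed each other in 2 directions, as the treatment already sets. Pearson correlations of log2 values, given as a description without a test and with treatment shared by all points, were 0.983 for *HMGA1* with *HMGN1* and 0.985 for *HMGA2* with *HMGB1*. *HMGB2* with *HMGN1* had -0.968, while *HMGN2* had correlations between -0.286 and 0.389 with the other members. Among 10682 genes with a symbol and a mean of at least 100, the genes most like *HMGA1* were *POLG*, *SLC27A4* and *FXR2* (each r = 0.997), and those most like *HMGN1* were *GRB2* (0.996), *LMNA* (0.994) and *ID1* (0.994). *HMGA2* was most like *MYOF* (0.998), *COL14A1* (0.997) and *IFI44* (0.995), and *HMGB1* most like *MAP4K4* (0.995), *STMN1* (0.994) and *PLK2* (0.994). *HMGB2* was most like *KMT5A* (0.998), a histone H4 methyltransferase, *ELF4* (0.998) and *ABI3* (0.997), and *HMGB3* most like *RND3* (0.984), *PALS2* (0.984) and *C12orf4* (0.979). *HMGN2* was most like *TWIST2* (0.968), *SMTN* (0.953) and *SLC5A6* (0.946), and *HMGN3* most like *RBM17* (0.930), *SART3* (0.918) and *PNN* (0.907). *HMGN4* was most like *FBXO36* (0.978), *LINC00294* (0.973) and *RBM47* (0.971), and *HMGN5* most like *AKR1A1* (0.960), *MIR34AHG* (0.959) and *NCR3LG1* (0.952).

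Genes that work beside the HMG proteins were counted from lists that, like the members, were set with earlier results known. Linker histones, which compete with HMGN proteins for nucleosomes, were higher under AZD5153 in 5 of 5 tested genes at 24 h and in 4 of 5 at 48 h, with a median log2 difference of 3.66 and 1.40. *H1-2* went from 194 ± 22.0 (SD, n = 3) to 2819 ± 239 normalized counts at 24 h and from 316 ± 17.2 to 4448 ± 88.9 at 48 h. *H1-4*, tested and named only because of its AZD5153 libraries, stayed low, from 4.45 ± 1.70 to 66.0 ± 6.23 and from 6.63 ± 0.52 to 34.8 ± 4.69. For this and the following lists, the shares of all genes called at each time, given above for the members, are the background.

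The proliferation list of 10 genes was lower in all 10 at both times. *TOP2A* fell from 18988 ± 1817 to 2788 ± 190 normalized counts at 24 h and from 13217 ± 282 to 5247 ± 192 at 48 h. *CCNA2* fell from 3406 ± 95.8 to 518 ± 34.2 and from 2212 ± 36.6 to 716 ± 29.5. From 24 to 48 h, 7 of the 10 rose in AZD5153, against 15.8% of all genes, and 9 fell in DMSO, against 19.3%. The difference of the effects was higher in 9 of 10, against 14.4% of all genes. It was 1.43 ± 0.09 (SE) for *TOP2A* and 1.09 ± 0.09 for *CCNA2*, a pair named for its AZD5153 effects and given without p-values. In this contrast *HMGB2* had a difference of 0.49, *HMGA1* of 0.08, *HMGB3* of -0.01, *HMGB1* of -0.21 and *HMGA2* of -0.77, so the members did not share 1 direction. The part of cell division in the HMG results was not tested.

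Of 11 genes of senescence-associated chromatin, 2 were higher and 7 lower at 24 h and 2 and 5 at 48 h. *LMNB1*, the nuclear lamina gene, went from 4847 ± 325 to 662 ± 25.0 normalized counts at 24 h and from 3467 ± 231 to 672 ± 54.1 at 48 h. *MACROH2A2*, a histone variant gene, ranged from 56.9 to 110.5 in DMSO and from 10.2 to 28.2 in AZD5153 at 24 h, and from 77.5 to 93.1 and from 12.8 to 27.2 at 48 h. Of 17 tested genes with other HMG boxes, 4 were higher and 10 lower at each time, though 3 of the lower genes at 48 h were not among those at 24 h. Among these *TCF7*, a Wnt pathway factor, went from 743 ± 96.0 to 85.1 ± 4.78 and from 989 ± 53.8 to 59.1 ± 20.9. *TOX* ranged from 106 to 147 in DMSO and from 7.34 to 13.4 in AZD5153 at 24 h, and from 62.1 to 66.7 and from 6.52 to 18.8 at 48 h.

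For *HMGA2*, 8 genes of the let-7 pathway were tested, of which 3 were higher and 3 lower at 24 h and 2 and 3 at 48 h. *LIN28B*, which blocks let-7 maturation, went from 137 ± 22.8 to 55.0 ± 3.78 normalized counts at 24 h and from 105 ± 3.76 to 24.4 ± 11.8 at 48 h. *TUT7*, a uridylyltransferase of let-7 precursors, went from 667 ± 38.5 to 1189 ± 32.5 and from 612 ± 48.1 to 965 ± 70.0. MicroRNAs themselves were not measured. Of 10 genes that act with HMGA proteins at enhancers or bind CCAAT and GC boxes, 3 were higher and 6 lower at each time, with *IRF3* among the higher genes at 24 h and *JUN* in its place at 48 h. *NFKB1* went from 2037 ± 32.6 to 709 ± 43.8 and from 1418 ± 45.1 to 519.6 ± 12.8, and *IRF1* from 190.5 ± 11.2 to 81.1 ± 13.9 and from 210.0 ± 16.5 to 103 ± 18.4.

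For the HMGB proteins, 6 of 12 listed receptors and partners of extracellular *HMGB1* were tested, and 0 were higher and 5 lower at both times. *CXCL12*, the chemokine that binds HMGB1, went from 678 ± 90.3 to 25.1 ± 5.33 normalized counts at 24 h and from 479 ± 16.7 to 13.0 ± 1.09 at 48 h. *TLR2* went from 112 ± 23.1 to 17.1 ± 6.37 and from 144 ± 20.8 to 19.8 ± 4.03. Of 4 tested genes of the SET complex, which holds HMGB2, 0 were higher and 3 lower at each time, with *NME1* among the lower genes at 24 h and *APEX1* in its place at 48 h. *SET* went from 24067 ± 958 to 18759 ± 325 and from 19847 ± 857 to 16038 ± 267, and *ANP32A* from 3229 ± 89.8 to 1230.4 ± 69.4 and from 2577 ± 285 to 933 ± 11.5.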

How the data were processed

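RNA from SF8628 cells was sequenced as 150-bp paired-end reads. The authors aligned the reads to hg38 with STAR and counted them on genes with HTSeq-count. Versions, the annotation and the strand setting are not given in the sources used here. The deposited values are a signal, gene counts that the authors divided by a DESeq2 size factor per library. The deposited table also holds log2 fold changes and p-values of the authors' comparison, which were not used. Libraries treated with JQ1 and chromatin data were not analysed here.

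In each library 100% of values were whole reads after rescaling (tolerance 0.1), so reads were recovered for the count models. The design foresaw limma for normalized values, and the fits used log2(normalized count + 1), on which changes of low genes come out too small. Genes with a mean of at least 10 were tested in 1 limma 3.58.1 fit of 4 groups (8 residual degrees of freedom, eBayes with trend, Benjamini-Hochberg adjustment at 0.05). edgeR 4.0.16 and DESeq2 1.42.0 called 10692 and 10607 genes at 24 hours on the recovered reads, against 10679 with limma. The limma, edgeR and DESeq2 fits were tested on simulated counts, and the other steps were not. Gene positions and exon lengths are from GENCODE 44 on GRCh38, matched by identifier.

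The members, lists and tests were chosen with earlier results of these data known. Named genes are all members, in each list the pair with the largest mean AZD5153 effect among genes called at both times, and for each member the 3 genes with the highest Pearson correlation. Alternatives covered the pseudocount (0.5, 10), the minimum mean (none, 100), scaling (TMM, equal totals, quantile, 7 stably expressed genes), the tool, the fit, a replicate block, pseudogene reads and leaving out each library. R 4.3.3, Python 3.11.15 and matplotlib 3.10.9 were used.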

Additional observations from a re-analysis of the deposited data

Results flagged for a closer look

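Among the HMG genes, the fitted AZD5153 effect at 48 hours differed most from that at 24 hours in 3. Both effects were among the values on which the family was chosen. The difference is therefore a description and not a test, and no p-value is given. It was -0.77 on the log2 scale for *HMGA2*, where all 3 AZD5153 libraries at 48 hours were below all 3 at 24 hours. For *HMGN5* it was -0.62, with the same order of the AZD5153 libraries. For *HMGB2* it was 0.49, and all 3 AZD5153 libraries were higher at 48 hours.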

How the results depend on the processing

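Of 1290 values of single members under the alternatives, 1198 kept direction and side of the threshold, 40 lost and 36 gained the call, and 16 changed sign. For AZD5153 against DMSO, 8 of 10 members passed the threshold at each time, 8 to 10 under the alternatives at 24 hours and 7 to 10 at 48 hours. At 48 hours *HMGN2* passed as higher in 4, *HMGN3* passed in 7 and *HMGN4* failed in 12 of 26. As the family was chosen on these effects, the counts are a description. In AZD5153 over time 7 were called, 5 to 8 under the alternatives. In DMSO from 24 to 48 hours, 4 members were called, 2 with equal totals, 1 with quantile normalization and 2 to 8 with single libraries left out. For the difference of the effects between times 3 passed, 5 at a minimum mean of 100 and up to 6 without replicate 1 of DMSO at 24 hours. Values that changed sign were those of *HMGN2* at 48 hours (-0.052 with equal totals, -0.0663 with quantile normalization), of *HMGB2* (0.0316) and *HMGN1* (0.0176) over time in DMSO with quantile normalization, of *HMGN4* over time in DMSO (-0.0014 to 0.0442 without single libraries) and of *HMGN2* over time in AZD5153 on 7 stable genes (0.0166). In the difference of effects they were those of *HMGA1* (-0.118 with quantile normalization, -0.0578 to 0.2501 without single libraries), *HMGB3* (0.0601 on 7 stable genes, -0.0804 to 0.0494 without single libraries) and *HMGN1* (0.0187 on 7 stable genes). Values of the new sign were not called, and the cause was not tested.

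Replicate numbers did not pair the libraries (correlation of deviations -0.15 to 0.04), and with a replicate block the calls over all genes were 10526 at 24 hours and 10290 at 48 hours against 10679 and 10453. The block ended the call of *HMGA2* over time in DMSO and added *HMGN3* there, and at 48 hours *HMGN3* passed in place of *HMGN4*. Equal totals moved the median of all genes to -0.12 at 24 and -0.17 at 48 hours, with 4340 genes higher and 6293 lower at 24 hours against 5287 and 5392, and 3897 and 6511 at 48 hours against 5159 and 5294. They gave 3128 higher and 2440 lower over time in DMSO (2551 and 3015) and 1760 and 1895 in the difference of effects (2254 and 1575). The 7 stable genes gave 3407 and 1367 over time in AZD5153 (2472 and 2155) and 2828 and 1166 in the difference of effects.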
